A study of Mus musculus with 11 samples.

Results

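Mature neutrophil genes were followed through 11 RNA-seq libraries of sorted mouse brain myeloid cells that their labels call microglia-like. The set held 10 genes of the 24411 in each count table, chosen by gene symbol as products that neutrophils accumulate late in their development: S100a8, S100a9, Ngp, Camp, Ltf, Lcn2, Retnlg, Mmp8, Csf3r and Cxcr2. All 10 were present in the tables and all 10 were among the 13339 genes tested. The study set 3 ways of delivering hematopoietic stem and progenitor cells against each other in a competitive transplantation: intrathecal lumbar injection (ITL), injection into the cerebral ventricles (ICV) and intravenous injection (IV). For each route there was 1 library of each of 3 populations: CD45.1 TAµ (called TAµ from here on), CD45.2 µ and CD45.1 µ. CD45.1 and CD45.2 are alleles of the pan-leukocyte antigen, used to tell cells of different origin apart. The labels do not spell out TAµ or say which allele marked the host. Outside this layout stood 1 ICV CD45.2 library labelled PBS, whose label does not say what received the buffer, and 1 CTR µ library with no allele given. The labels give no strain, age, conditioning or interval since transplantation, and no number of animals per library.

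Neutrophils are short-lived granulocytes made in bone marrow. As they mature they fill their granules in waves, first with myeloperoxidase and serine proteases, later with lactoferrin and cathelicidin, and last with gelatinases, and they leave the marrow with S100a8 and S100a9 as the bulk of their cytosolic protein. The receptor for granulocyte colony-stimulating factor, Csf3r, drives their production, and the chemokine receptor Cxcr2 draws them out of marrow and into tissue. Healthy brain parenchyma holds few neutrophils. Microglia, the resident macrophages of the brain, and other macrophages also carry Csf3r, while the granule genes are not part of the microglial programme.

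The promoters of 4 members are shown because they stand for the groups that the levels below fall into. These are the calprotectin pair S100a8 and S100a9, the granule gene Ngp, and the receptor gene Csf3r. The level of Csf3r did not follow the others in IV CD45.2 µ. All 10 members matched the RefSeq promoter table of build GRCm38.p6, which holds the sequence from 250 bases before to 50 bases after each gene start. Capitals mark matches, on either strand, to a C/EBP-type motif (TTNNGNAA), a PU.1-type motif (GAGGAA) and a TATA motif (TATAAA). These are letters that the named myeloid factors and the basal machinery can bind, and a match is a description of the sequence only. S100a8 lies at chr3:90668821-90669120 on the plus strand, S100a9 at chr3:90695672-90695971 on the minus strand, Ngp at chr9:110419558-110419857 on the plus strand and Csf3r at chr4:126024409-126024708 on the plus strand.
S100a8: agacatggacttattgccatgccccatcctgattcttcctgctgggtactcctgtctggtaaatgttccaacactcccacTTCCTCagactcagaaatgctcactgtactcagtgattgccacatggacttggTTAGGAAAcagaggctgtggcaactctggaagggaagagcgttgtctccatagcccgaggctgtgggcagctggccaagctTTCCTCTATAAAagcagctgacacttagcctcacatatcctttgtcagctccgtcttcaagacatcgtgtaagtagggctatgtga
S100a9: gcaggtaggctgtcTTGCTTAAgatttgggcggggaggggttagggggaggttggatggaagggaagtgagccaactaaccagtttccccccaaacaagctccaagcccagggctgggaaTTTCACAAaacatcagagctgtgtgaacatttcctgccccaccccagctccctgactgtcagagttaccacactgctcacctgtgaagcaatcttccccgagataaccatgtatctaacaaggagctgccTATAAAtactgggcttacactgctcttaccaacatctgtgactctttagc
Ngp: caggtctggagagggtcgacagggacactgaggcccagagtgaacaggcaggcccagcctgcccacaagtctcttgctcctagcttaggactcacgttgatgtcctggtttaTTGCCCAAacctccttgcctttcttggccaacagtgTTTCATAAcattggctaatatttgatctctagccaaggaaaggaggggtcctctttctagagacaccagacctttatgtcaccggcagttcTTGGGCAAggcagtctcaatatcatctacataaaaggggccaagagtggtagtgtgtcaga
Csf3r: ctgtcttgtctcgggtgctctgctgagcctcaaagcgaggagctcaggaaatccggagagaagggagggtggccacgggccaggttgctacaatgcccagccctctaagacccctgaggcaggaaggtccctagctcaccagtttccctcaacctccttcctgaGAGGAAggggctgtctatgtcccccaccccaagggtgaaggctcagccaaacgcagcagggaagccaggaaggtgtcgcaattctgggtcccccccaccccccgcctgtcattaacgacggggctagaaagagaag
In the S100a8 sequence a PU.1-type and the TATA match stand next to each other and read as 1 run of capitals. The C/EBP-type motif was found in 7 of 10 member promoters (S100a8, S100a9, Ngp, Ltf, Lcn2, Retnlg and Mmp8) and in 40.7% of all 32851 promoters in the table. The PU.1-type motif was found in 6 of 10 (S100a8, Ltf, Lcn2, Mmp8, Csf3r and Cxcr2) and in 28.3% of all promoters. The TATA motif was found in 3 of 10 (S100a8, S100a9 and Mmp8) and in 13.6% of all promoters. Matches to different motifs did not overlap in a member promoter. Csf3r, Cxcr2 and Camp had no C/EBP-type match in this window.

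Depth ran from 6090589 to 21282823 counts per library, and levels are given as CPM, the count scaled to a common library total, with an exact 95% Poisson interval where a count is small. Libraries differed in breadth: 15492 genes had a count in IV TAµ and 10477 in IV CD45.2 µ, the lowest, followed by 11456 in ICV CD45.1 µ. The ribosomal precursor Rn45s took 6.98% to 25.1% of the counts. The 7 microglial markers (P2ry12, Tmem119, Cx3cr1, Sall1, Siglech, Fcrls and Gpr34) all had counts in all 11 libraries and summed to 4698 to 16510 CPM. IV CD45.2 µ stood apart from the other libraries for the neutrophil genes, and each comparison below that includes it is given with and without it. Since the members' own values singled this library out, the adjusted p-values without it do not account for that choice, and the calls made without it describe the remaining 8 libraries.

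Summed over the 10 members, the neutrophil genes were highest in IV CD45.1 µ, at 14503 CPM, which is 1.45% of its counts. Next came ITL CD45.2 µ with 4779 CPM, ITL CD45.1 µ with 4209 CPM, IV TAµ with 4099 CPM and ICV CD45.2 µ with 3312 CPM. ICV CD45.2 PBS had 3160 CPM, CTR µ had 2340 CPM, ICV CD45.1 µ had 1826 CPM, ITL TAµ had 1731 CPM and ICV TAµ had 1047 CPM. IV CD45.2 µ was last with 504.8 CPM, of which all but 2.86 CPM (37 counts) came from Csf3r. With 1 library per combination, neighbours in this order have no replicate to separate them. In such bulk libraries fewer neutrophils and less neutrophil RNA per cell cannot be told apart.

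S100a8 and S100a9 encode the subunits of calprotectin, a calcium- and zinc-binding protein that neutrophils release and that signals through Tlr4. S100a8 had 458.5 CPM in ITL TAµ, 159.8 CPM in ICV TAµ and 749 CPM in IV TAµ. In the CD45.2 µ population it had 901 CPM in ITL CD45.2 µ, 578 CPM in ICV CD45.2 µ and 0.850 CPM in IV CD45.2 µ, the last from 11 counts (interval 0.424 to 1.52 CPM). In the CD45.1 µ population it had 679 CPM in ITL CD45.1 µ, 166 CPM in ICV CD45.1 µ and 2199 CPM in IV CD45.1 µ. The IV libraries therefore held both the highest and the lowest level, and the populations overlapped. Outside the layout S100a8 had 511 CPM in ICV CD45.2 PBS and 346 CPM in CTR µ.

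S100a9 followed its partner. It had 499.6 CPM in ITL TAµ, 223 CPM in ICV TAµ and 1153 CPM in IV TAµ. The CD45.2 µ libraries had 1071 CPM in ITL CD45.2 µ, 807 CPM in ICV CD45.2 µ and 0 CPM in IV CD45.2 µ (exact 95% upper limit 0.285 CPM). The CD45.1 µ libraries had 1235 CPM in ITL CD45.1 µ, 336 CPM in ICV CD45.1 µ and 3849 CPM in IV CD45.1 µ. The order of the routes within each population was the one seen for S100a8. The remaining libraries had 804 CPM in ICV CD45.2 PBS and 492 CPM in CTR µ. Per kilobase of exon, which allows genes to be compared, S100a9 was the most abundant member (median 1546 CPM per kb over the 9 libraries of the layout), ahead of S100a8 (833 CPM per kb) and Ngp (545.5 CPM per kb), and Cxcr2 was the least abundant (4.61 CPM per kb).

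Ngp encodes neutrophilic granule protein, a cystatin-like protein of specific granules, and Camp encodes the antimicrobial cathelicidin of the same granules. Ngp had 167 CPM in ITL TAµ, 216 CPM in ICV TAµ and 667 CPM in IV TAµ. It had 853 CPM in ITL CD45.2 µ, 715 CPM in ICV CD45.2 µ and 0.0773 CPM in IV CD45.2 µ, the last from 1 count (interval 0.00196 to 0.431 CPM). It had 887 CPM in ITL CD45.1 µ, 354 CPM in ICV CD45.1 µ and 3830 CPM in IV CD45.1 µ. Apart from IV CD45.2 µ the lowest Ngp levels were those of the ITL and ICV TAµ libraries. CTR µ and PBS stood inside this range, with 609 CPM in ICV CD45.2 PBS and 400.4 CPM in CTR µ. Camp, at a lower level, had 13.03 CPM in ITL TAµ, 17.1 CPM in ICV TAµ and 31.5 CPM in IV TAµ, against 46.95 CPM in ITL CD45.1 µ, 30.5 CPM in ICV CD45.1 µ and 205 CPM in IV CD45.1 µ. In the CD45.2 µ population Camp had 31.85 CPM in ITL CD45.2 µ, 56.4 CPM in ICV CD45.2 µ and 0.0773 CPM in IV CD45.2 µ, again from 1 count. The highest TAµ level of Camp, in the IV library, was just above the lowest CD45.1 µ level, in the ICV library. Camp had 50.1 CPM in ICV CD45.2 PBS and 30.8 CPM in CTR µ.

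Ltf encodes lactoferrin, an iron-binding protein of specific granules, and Lcn2 encodes lipocalin 2, which binds bacterial siderophores and is also made by reactive astrocytes. Ltf had 90.0 CPM in ITL TAµ, 104 CPM in ICV TAµ and 439 CPM in IV TAµ. The CD45.2 µ libraries had 513 CPM in ITL CD45.2 µ, 356 CPM in ICV CD45.2 µ and 0 CPM in IV CD45.2 µ of Ltf. The CD45.1 µ libraries had 467.5 CPM in ITL CD45.1 µ, 204 CPM in ICV CD45.1 µ and 2408 CPM in IV CD45.1 µ. As with Ngp, the ITL and ICV TAµ libraries were the lowest apart from IV CD45.2 µ, and IV CD45.1 µ was the highest. Lcn2 had 67.3 CPM in ITL TAµ, 67.3 CPM in ICV TAµ and 249 CPM in IV TAµ. It had 286 CPM in ITL CD45.2 µ, 177 CPM in ICV CD45.2 µ and 0.850 CPM in IV CD45.2 µ, the last from 11 counts. It had 200.3 CPM in ITL CD45.1 µ, 86.45 CPM in ICV CD45.1 µ and 915 CPM in IV CD45.1 µ. Lcn2 was likewise highest in IV CD45.1 µ and, after IV CD45.2 µ, lowest in the ITL and ICV TAµ libraries. Outside the layout Ltf had 365 CPM in ICV CD45.2 PBS and 202 CPM in CTR µ, and Lcn2 had 187 CPM in ICV CD45.2 PBS and 131 CPM in CTR µ.

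Retnlg encodes a resistin-like protein that mouse neutrophils carry late in maturation, and Mmp8 encodes neutrophil collagenase. Retnlg had 111 CPM in ITL TAµ, 17.3 CPM in ICV TAµ and 221 CPM in IV TAµ. It had 226 CPM in ITL CD45.2 µ, 122 CPM in ICV CD45.2 µ and 0 CPM in IV CD45.2 µ. It had 117 CPM in ITL CD45.1 µ, 39.2 CPM in ICV CD45.1 µ and 292 CPM in IV CD45.1 µ. The ICV TAµ library was thus the lowest in Retnlg after IV CD45.2 µ. Mmp8 had 44.25 CPM in ITL TAµ, 26.7 CPM in ICV TAµ and 117 CPM in IV TAµ. The CD45.2 µ libraries had 129.5 CPM in ITL CD45.2 µ, 74.3 CPM in ICV CD45.2 µ and 0 CPM in IV CD45.2 µ of Mmp8. The CD45.1 µ libraries had 38.9 CPM in ITL CD45.1 µ, 0 CPM in ICV CD45.1 µ and 102.5 CPM in IV CD45.1 µ. Mmp8 and Csf3r were the members whose highest level was in ITL CD45.2 µ and not in IV CD45.1 µ. In ICV CD45.1 µ the 0 counts of Mmp8 have an exact 95% upper limit of 0.331 CPM. In that library 9 of 28 other mature neutrophil genes were also at 0 (Fpr1, Trem1, Slpi, Ltb4r1, Lrg1, Ceacam10, Stfa2l1, Cxcr1 and Olfm4), while S100a8 had 1848 counts. Of all 24411 genes 11456 had a count in ICV CD45.1 µ. Outside the layout Retnlg had 103.5 CPM in ICV CD45.2 PBS and 85.1 CPM in CTR µ, and Mmp8 had 59.7 CPM in ICV CD45.2 PBS and 36.1 CPM in CTR µ.

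The receptor genes differed from each other. Csf3r had 267 CPM in ITL TAµ, 213 CPM in ICV TAµ and 435.5 CPM in IV TAµ. It had 747 CPM in ITL CD45.2 µ, 412 CPM in ICV CD45.2 µ and 502 CPM in IV CD45.2 µ. It had 494 CPM in ITL CD45.1 µ, 600.3 CPM in ICV CD45.1 µ and 642 CPM in IV CD45.1 µ. All 3 TAµ levels lay below all 3 CD45.1 µ levels, and IV CD45.2 µ, the library with almost no granule transcripts, kept Csf3r at an ordinary level from 6494 counts. CTR µ had more Csf3r than 7 of the 9 libraries, with 449 CPM in ICV CD45.2 PBS and 607.5 CPM in CTR µ. Cxcr2, the receptor for Cxcl1 and Cxcl2, had 13.7 CPM in ITL TAµ, 2.26 CPM in ICV TAµ and 37.1 CPM in IV TAµ. It had 20.4 CPM in ITL CD45.2 µ, 14.05 CPM in ICV CD45.2 µ and 1.005 CPM in IV CD45.2 µ. It had 43.0 CPM in ITL CD45.1 µ, 10.05 CPM in ICV CD45.1 µ and 59.5 CPM in IV CD45.1 µ. Its lowest levels rested on few reads, with 27 counts in ICV TAµ and 13 counts in IV CD45.2 µ. Outside the layout Cxcr2 had 22.5 CPM in ICV CD45.2 PBS and 8.95 CPM in CTR µ.

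**Figure D1:**
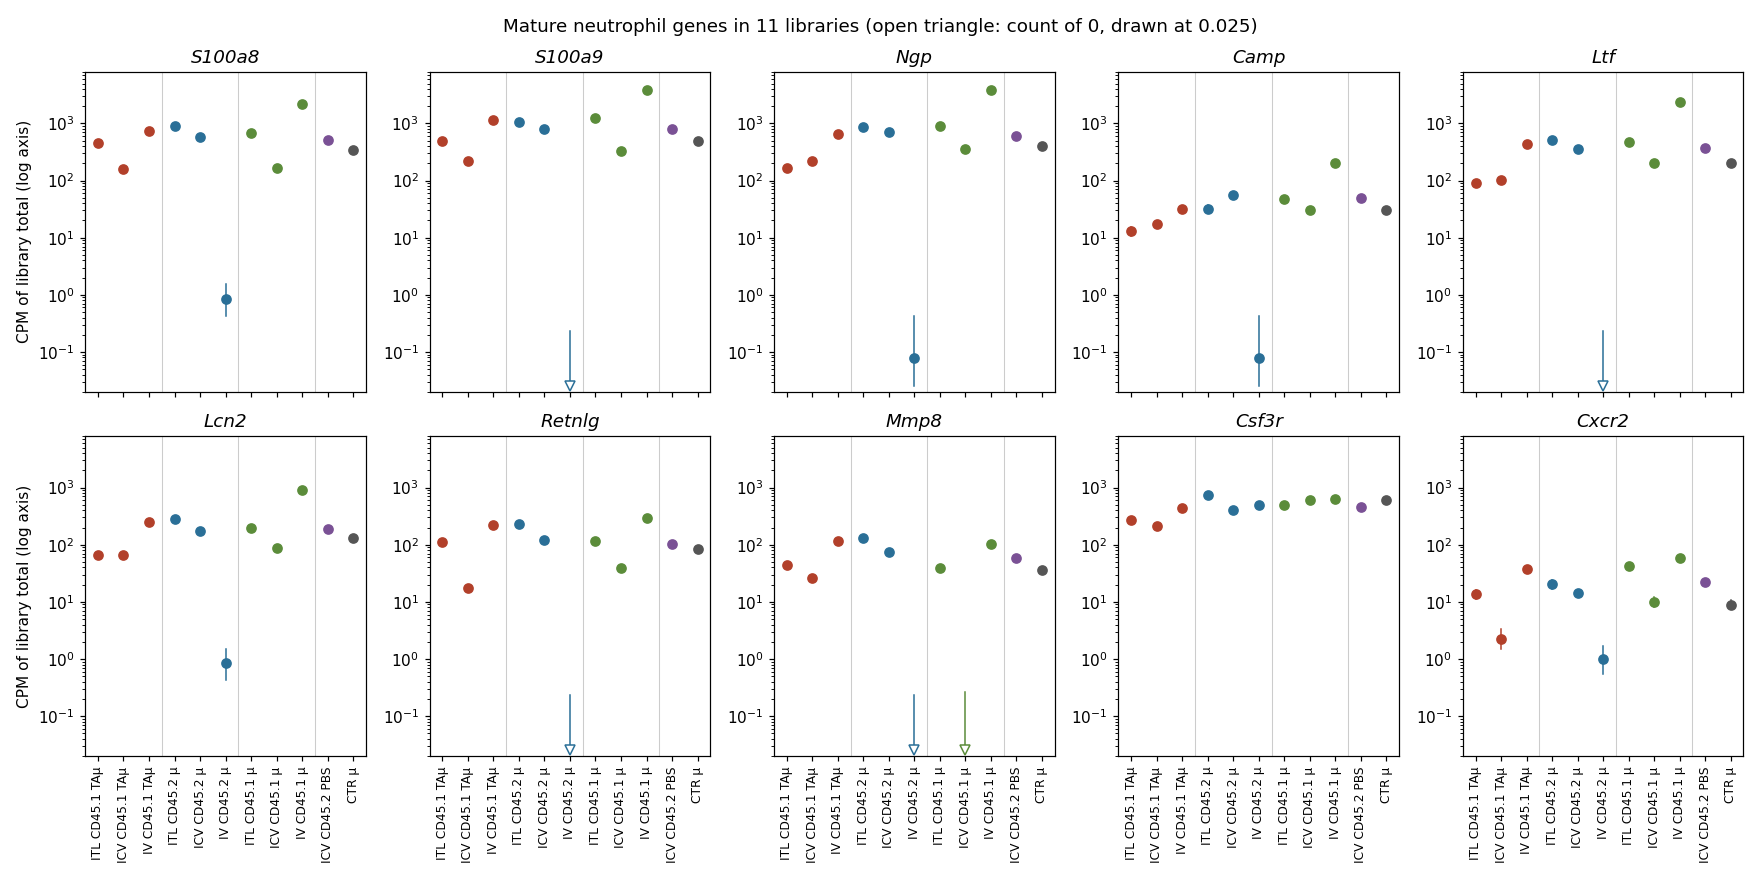
Level of each mature neutrophil gene (CPM of the library total, log axis) in each of the 11 libraries, 1 point per library, coloured by population, with exact 95% Poisson intervals where they exceed the point, ending at the lower edge where they run below it, and open triangles for a count of 0 with a line up to the level that 3 counts would give. IV CD45.2 µ sits at or near 0 for the members other than Csf3r, IV CD45.1 µ is highest for 8 of the 10, and Csf3r stays between 213 and 747 CPM.

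The first comparison asked whether the TAµ cells differ from the CD45.1 µ cells, with route as a block. Across routes 9 of the 10 members had a lower fitted level in TAµ and Mmp8 a higher one, with a median log2 fold change of -1.17, against 0.06 over all genes tested. The quasi-likelihood test of edgeR, with p-values adjusted by Benjamini-Hochberg over all genes, called 0 of 10 members. It called 10 of 13339 genes, a background of 0.0750%. At an unadjusted p under 0.05 the count was 2 of 10 (Camp and Csf3r), beside 715 of 13339 genes. DESeq2 called 1 (Csf3r, adjusted p = 0.0386), beside a background of 1.63% of genes by DESeq2.

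Ngp averaged 350.0 ± 275 CPM in TAµ and 1691 ± 1872 CPM in CD45.1 µ (SD over routes, n = 3 each), a log2 fold change of -2.02 ± 1.00 (SE; adjusted p = 0.874, edgeR). Camp averaged 20.5 ± 9.70 CPM in TAµ and 94.3 ± 96.55 CPM in CD45.1 µ, with -2.03 ± 0.81, and Ltf averaged 211 ± 197.5 CPM against 1026 ± 1204 CPM, with -2.01 ± 0.96. For each of these granule genes the SD in CD45.1 µ exceeded the mean, and the groups overlapped. Csf3r averaged 305 ± 116 CPM in TAµ and 579 ± 76.25 CPM in CD45.1 µ, with -0.85 ± 0.25 (adjusted p = 0.580). It was the 1 member whose groups did not overlap. Over all genes tested, 6.33% had all TAµ levels below all CD45.1 µ levels. Retnlg and Mmp8 had the smallest fold changes, -0.35 ± 0.83 and 0.57 ± 0.91. When IV CD45.1 µ was left out, 4 of these uncalled fold changes turned above 0 (S100a8 0.83, S100a9 0.20, Lcn2 0.28 and Retnlg 0.85), while Ngp, Camp, Ltf, Csf3r and Cxcr2 stayed below 0 whichever library was left out.

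Set side by side within a route, 6 members were more than 2-fold lower in ITL TAµ than in ITL CD45.1 µ, where 11.6% of all genes were. In the ICV pair 3 were more than 2-fold lower (background 23.9%) and 1, Mmp8, more than 2-fold higher (background 24.8%). In the IV pair 6 were more than 2-fold lower (background 9.06%). Ngp in TAµ was 0.188 of its CD45.1 µ level for ITL, 0.6105 for ICV and 0.174 for IV. Camp in TAµ was 0.278, 0.559 and 0.153 of its CD45.1 µ level for the same routes. Point values shared a direction in the 3 routes for all 10 members, a trait whose share over all genes is not given here. Counting intervals included 1 for S100a8 in the ICV pair (0.963, exact 95% interval 0.903 to 1.027). They also did in the ITL pair for Retnlg (0.944, 0.869 to 1.025) and Mmp8 (1.137, 0.9915 to 1.304). The difference was smallest in the ICV pair for the 4 granule genes Ngp, Camp, Ltf and Lcn2. Of 7 classical monocyte markers, Chil3 is also on the list of other mature neutrophil genes. The other 6 summed to 396 to 672 CPM in TAµ and to 316 to 409 CPM in CD45.1 µ, and Chil3 had 72.4 to 105 CPM in TAµ and 71.3 to 841 CPM in CD45.1 µ. Their part in these differences was not tested.

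The same fit without IV CD45.2 µ gave smaller standard errors. Ltf was then called lower in TAµ, at -1.84 ± 0.31 (edgeR adjusted p = 0.0330), a 3.58-fold difference, beside a background of 0.182% of 13191 genes. Ngp stood at -1.80 ± 0.34 with an adjusted p of 0.0564 and Camp at -1.88 ± 0.43 with 0.194. Without ICV CD45.1 µ as well, a setting chosen after seeing the data, edgeR called Camp, Ngp and Ltf. All of these calls were of lower levels in TAµ. That setting has fewer residual degrees of freedom, and its share over all genes is not given here.

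Against the CD45.2 µ population the fitted TAµ levels were lower for 9 of the 10 members, with a median log2 fold change of -0.65, against 0.10 over all genes tested. edgeR called 0 of 10 members, beside a background of 0.345%. At an unadjusted p under 0.05 there was 1, Csf3r, beside 901 of 13339 genes, and DESeq2 called 0 members. Csf3r averaged 305 ± 116 CPM in TAµ and 554 ± 174 CPM in CD45.2 µ, a log2 fold change of -0.80 ± 0.25 (edgeR adjusted p = 0.289). The comparison shares its TAµ libraries with the one before. In the IV pair, with IV CD45.2 µ at or near 0, all members but Csf3r were more than 2-fold higher in TAµ (background 35.7%). Without ICV CD45.2 µ, 8 of the 10 uncalled fold changes stood above 0, the highest being Cxcr2 with 1.72 and Camp with 1.20.

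When IV CD45.2 µ was left out all 10 members were lower in TAµ than in CD45.2 µ, with a median of -1.72, and 3 were called beside a background of 0.197%. Ltf had -2.18 ± 0.34 (4.54-fold; edgeR adjusted p = 0.0167), Ngp -2.09 ± 0.37 (4.24-fold; 0.0340) and Lcn2 -1.83 ± 0.34 (3.55-fold; 0.0468). The same 3 genes were called without ICV CD45.1 µ as well, a setting chosen after seeing the data. Its share over all genes is not given here. Both settings share their other libraries, so the repeat is no independent support. In the ITL pair 8 members were more than 2-fold lower in TAµ (background 16.9%), and in the ICV pair 9 were (background 17.9%). Retnlg in ICV TAµ was 0.141 of its ICV CD45.2 µ level, and S100a9 was 0.276. The fitted fold changes with and without that library are in the plot of log2 fold changes.

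Between the CD45.2 µ and CD45.1 µ populations edgeR called 0 of 10 members, beside a background of 0.0300%. At an unadjusted p under 0.05 there were 0 members and 1173 genes, and DESeq2 called 0 members. With 9 libraries 8 of the 10 fitted fold changes were below 0, at a median of -0.66, against -0.01 over all genes. The 3 routes differed. In the IV pair 9 members were more than 2-fold lower in CD45.2 µ (background 27.6%). In the ICV pair 6 were more than 2-fold higher in CD45.2 µ (background 25.2%). In the ITL pair 1, Mmp8, was more than 2-fold higher (background 21.8%) and 1, Cxcr2, more than 2-fold lower (background 11.8%). Retnlg was at 1.93 times its CD45.1 µ level in the ITL pair and 3.12 times in the ICV pair. Without IV CD45.2 µ, 9 of the 10 fitted fold changes were above 0 and edgeR again called none (background 0.0227%). The largest then was Mmp8, with 2.45 ± 0.60 (adjusted p = 0.718), which rests on 0 counts in ICV CD45.1 µ, and next Retnlg, with 1.43 ± 0.35 (adjusted p = 0.743).

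**Figure D2:**
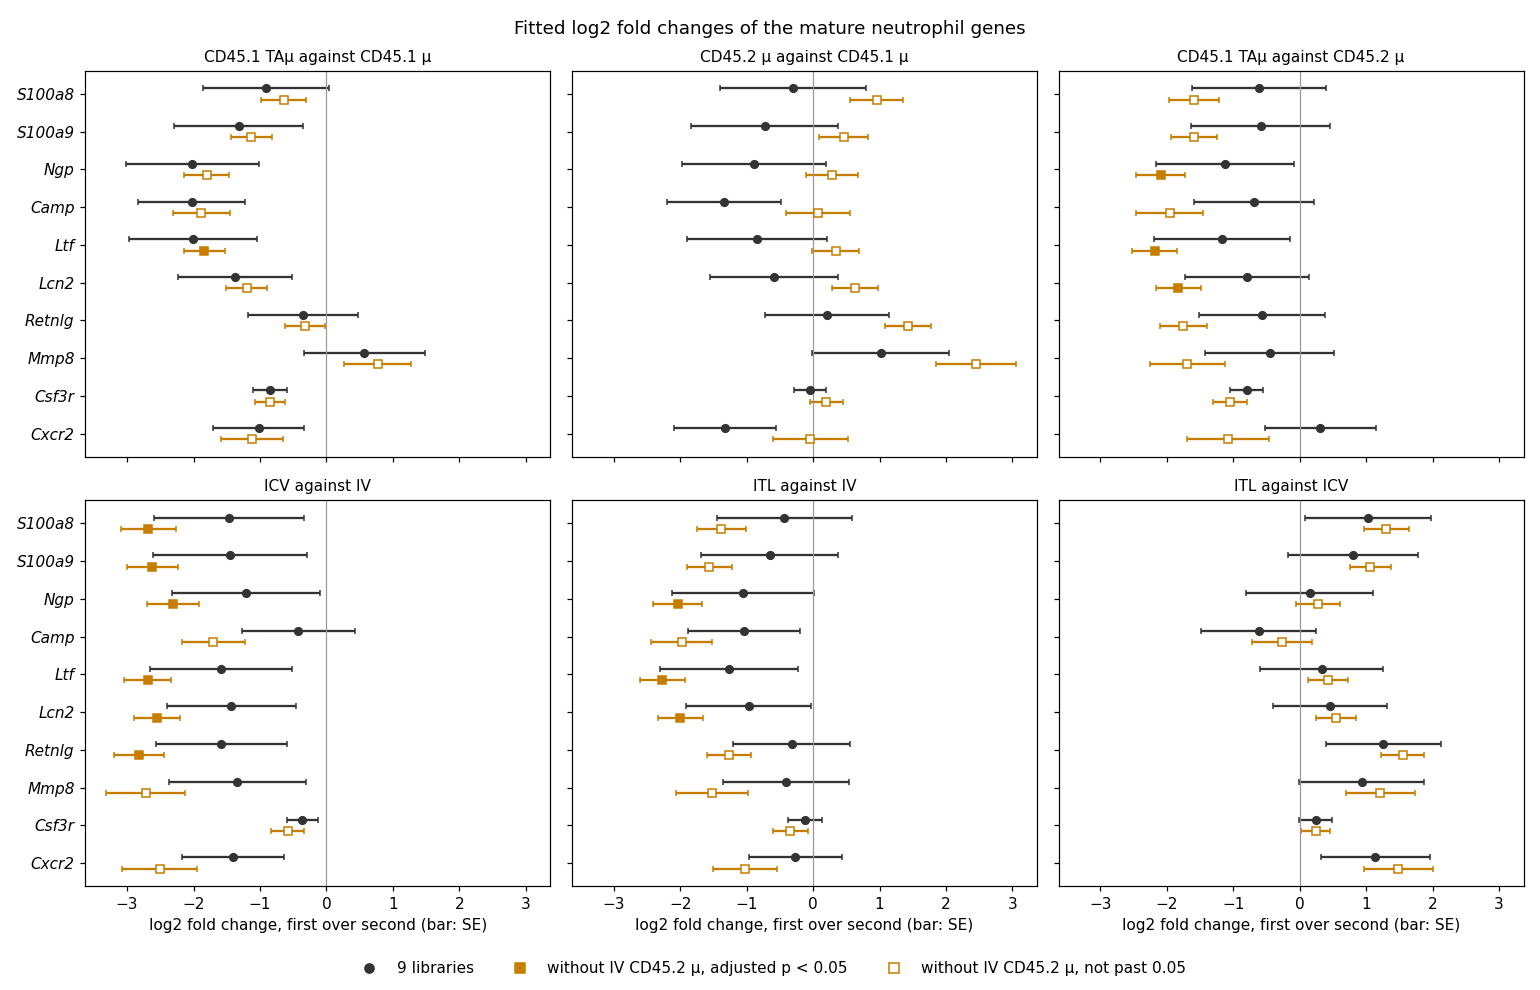
Fitted log2 fold change (first group over second) of each mature neutrophil gene in the 6 contrasts, with bars of 1 SE: black circles for all 9 libraries, orange squares without IV CD45.2 µ, filled where the edgeR adjusted p is under 0.05. No black circle passed, and the filled squares are 1, 0, 3, 6, 3 and 0 members in reading order, all to the left of 0.

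Route was compared with population as the block. For ICV against IV all 10 members had a lower fitted level after ICV delivery, with a median log2 fold change of -1.42, against 0.06 over all genes. edgeR called 0 of 10 members and 0 of 13339 genes, a background of 0%. At an unadjusted p under 0.05 there were 0 members and 1230 genes, and DESeq2 called 0 members and 147 genes. S100a8 averaged 301 ± 239.9 CPM in ICV and 983 ± 1117 CPM in IV (SD over populations, n = 3 each), with -1.47 ± 1.13 (SE; adjusted p = 0.698). Retnlg averaged 59.6 ± 55.4 CPM in ICV and 171 ± 152 CPM in IV, with -1.58 ± 0.98 (adjusted p = 0.623). The IV group held the highest and the lowest library, and the groups overlapped for all 10. When IV CD45.1 µ was left out, S100a8, Ngp, Camp and Lcn2 turned to 0.18, 0.31, 1.19 and 0.07, and none was called.

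With IV CD45.2 µ left out, a choice made on the members' own levels, 6 of 10 members were called lower after ICV than after IV delivery, beside a background of 0.212%. Ltf had -2.69 ± 0.35 (6.45-fold; edgeR adjusted p = 0.00475). Retnlg had -2.82 ± 0.37 (7.05-fold; 0.00475), Lcn2 -2.55 ± 0.35 (5.85-fold; 0.00549) and S100a9 -2.62 ± 0.38 (6.15-fold; 0.00739). S100a8 had -2.68 ± 0.41 (6.41-fold; 0.0105) and Ngp -2.31 ± 0.39 (4.96-fold; 0.0225). Mmp8, Cxcr2, Camp and Csf3r did not pass, with adjusted p of 0.0931, 0.0931, 0.203 and 0.431. When ICV CD45.1 µ was left out too, which left 1 complete pair of these routes, edgeR called 0 of 10.

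The single values of the 3 pairs did not share a direction. In TAµ 9 members were more than 2-fold lower after ICV than after IV delivery (background 24.3%), and in CD45.1 µ 9 were (background 21.0%). In CD45.2 µ, where the IV library is the one at or near 0, 9 were more than 2-fold higher after ICV (background 32.9%), S100a8 by 680.2-fold. Cxcr2 in ICV TAµ was 0.0609 of its IV TAµ level, from 27 against 549 counts, and Retnlg was 0.0783. In CD45.1 µ the S100a8 level after ICV was 0.07545 of that after IV, and Ltf was 0.0846. Camp in the TAµ pair, at 0.542, and Csf3r in the CD45.1 µ pair, at 0.935, were not more than 2-fold lower. In the same pairs the 6 monocyte markers other than Chil3 summed to 396 CPM in ICV TAµ against 672 CPM in IV TAµ, and to 316 CPM in ICV CD45.1 µ against 323 CPM in IV CD45.1 µ. Chil3 had 72.4 CPM in ICV TAµ against 105 CPM in IV TAµ, and 71.3 CPM in ICV CD45.1 µ against 841 CPM in IV CD45.1 µ. Summed microglial markers were 7328 CPM in ICV TAµ against 5175 CPM in IV TAµ, and 7311 CPM in ICV CD45.1 µ against 5501 CPM in IV CD45.1 µ. Their part in the result was not tested.

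For ITL against IV all 10 members again had a lower fitted level, with a median of -0.54, against 0.05 over all genes. edgeR called 0 of 10, beside a background of 0.217%. At an unadjusted p under 0.05 there were 0 members and 714 genes, and DESeq2 called 0 members. Ltf averaged 357 ± 232 CPM in ITL and 949 ± 1283 CPM in IV, with -1.26 ± 1.04 (adjusted p = 0.926). Leaving out IV CD45.1 µ turned 9 of the 10 fold changes above 0, the highest being S100a8 with 1.33 and Mmp8 with 1.03, with none called. With IV CD45.2 µ left out instead, 3 members were called lower after ITL delivery, beside a background of 0.265%. These were Ltf, with -2.27 ± 0.34 (4.82-fold; edgeR adjusted p = 0.00862), Lcn2, with -2.00 ± 0.34 (3.99-fold; 0.0199), and Ngp, with -2.04 ± 0.37 (4.11-fold; 0.0345). Without ICV CD45.1 µ as well the called members were Lcn2, S100a9, Ngp and Ltf, where 49 genes were called over all genes. That setting was chosen after seeing the data. In the TAµ pair 7 members were more than 2-fold lower (background 7.96%), and in the CD45.1 µ pair 8 were (background 16.1%). In the CD45.2 µ pair 9 were more than 2-fold higher after ITL (background 37.0%), S100a8 by 1059-fold.

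ITL against ICV gave 9 members with a higher fitted level after ITL delivery and 1, Camp, with a lower one, at a median of 0.63, against -0.02 over all genes. edgeR called 0 of 10 members and 0 of 13339 genes (background 0%), with 0 members and 506 genes at an unadjusted p under 0.05, and DESeq2 called 0 members and 32 genes. Without IV CD45.2 µ edgeR again called 0 of 10, beside a background of 0.00758%. Retnlg came nearest then, with 1.55 ± 0.32 (adjusted p = 0.194). In TAµ 4 members were more than 2-fold higher after ITL (background 19.4%), among them Retnlg at 6.395-fold and Cxcr2 at 6.05-fold. In CD45.2 µ none was (background 18.0%), and in CD45.1 µ 8 were (background 22.9%), where S100a8 was 4.095-fold higher and Csf3r was at 0.823 of its ICV level.

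The IV route also held the widest contrast between single libraries. S100a8 in IV CD45.2 µ was 0.000387 of its IV CD45.1 µ level (exact 95% interval 0.000193 to 0.000692, counting error only), from 11 against 37482 counts. S100a9 had 0 against 65626 counts and Ltf 0 against 41057, ratios with exact 95% upper limits of 7.41e-05 and 0.000118. Csf3r in the same pair was at 0.782 of its IV CD45.1 µ level. In IV CD45.2 µ 25 of 28 other mature neutrophil genes and 4 of 7 classical monocyte markers (Ly6c2, Plac8, Vcan and Chil3) were also at 0, while all 7 microglial markers had counts and summed to 9884 CPM. Of all 24411 genes 10477 had a count in that library, so 0 counts there were not confined to these lists. In IV TAµ, the library with the most, 15492 genes had a count. In ICV CD45.1 µ 11456 had one, and 9 of the 28 other mature neutrophil genes were at 0 there. The part of low breadth in the 0 counts of IV CD45.2 µ was not tested.

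ICV CD45.2 µ and ICV CD45.2 PBS, 1 library each, were close in level for the members, as for most genes. No member differed more than 2-fold either way, where 9.63% of all genes were more than 2-fold higher in ICV CD45.2 µ and 9.33% more than 2-fold lower. S100a9 in µ was 1.00 times its PBS level (exact 95% interval 0.983 to 1.03), Mmp8 was 1.245 times and Cxcr2 was 0.623 times (0.536 to 0.7235). Primary granule genes summed to 34.35 CPM in ICV CD45.2 µ and 178.9 CPM in PBS. CTR µ lay within the range of the 9 libraries for all 10 members, so 0 of 10 were outside it by more than 1 log2 unit. Of 13140 genes 1.62% were, so this does not set the members apart. For the members other than Csf3r the range begins at 0 to 1.005 CPM, the levels in IV CD45.2 µ, so a lower level was hardly possible. At least 5 of the 9 libraries had more than CTR µ of each member but Csf3r, of which 2 had more.

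The members did not move in fixed proportion. Counts per S100a8 count were taken in the 10 libraries with at least 100 S100a8 counts, which leaves out IV CD45.2 µ. Between TAµ and CD45.1 µ of the same route, S100a9, Ngp, Camp, Ltf and Lcn2 had a lower ratio to S100a8 in TAµ for 3 of 3 routes. Ltf had 0.196, 0.652 and 0.586 counts per S100a8 count in ITL, ICV and IV TAµ, against 0.688, 1.23 and 1.09 in ITL, ICV and IV CD45.1 µ, without overlap. S100a9 had 1.09, 1.39 and 1.54 in the TAµ libraries of those routes, against 1.82, 2.02 and 1.75 in the CD45.1 µ libraries, also without overlap. Mmp8 ran the other way, with 0.0965, 0.167 and 0.156 in TAµ against 0.0573, 0 and 0.0466 in CD45.1 µ. For these genes ITL CD45.2 µ, ICV CD45.2 µ and CTR µ stood within the TAµ range, so the difference is not particular to TAµ. Their ratios were 0.569, 0.615 and 0.5825 for Ltf, 1.19, 1.396 and 1.419 for S100a9, and 0.144, 0.1285 and 0.104 for Mmp8. ICV CD45.2 PBS had 0.7135, 1.573 and 0.117 for Ltf, S100a9 and Mmp8. Ngp had 0.364, 1.35 and 0.890 in TAµ and 1.31, 2.14 and 1.74 in CD45.1 µ. Retnlg had no common direction, with 0.241, 0.108 and 0.295 in TAµ and 0.173, 0.236 and 0.133 in CD45.1 µ. These ratios share S100a8 as their denominator, were chosen after the levels were seen and carry no test. The share of all genes with such a common direction or lack of overlap is not given here.

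**Figure D3:**
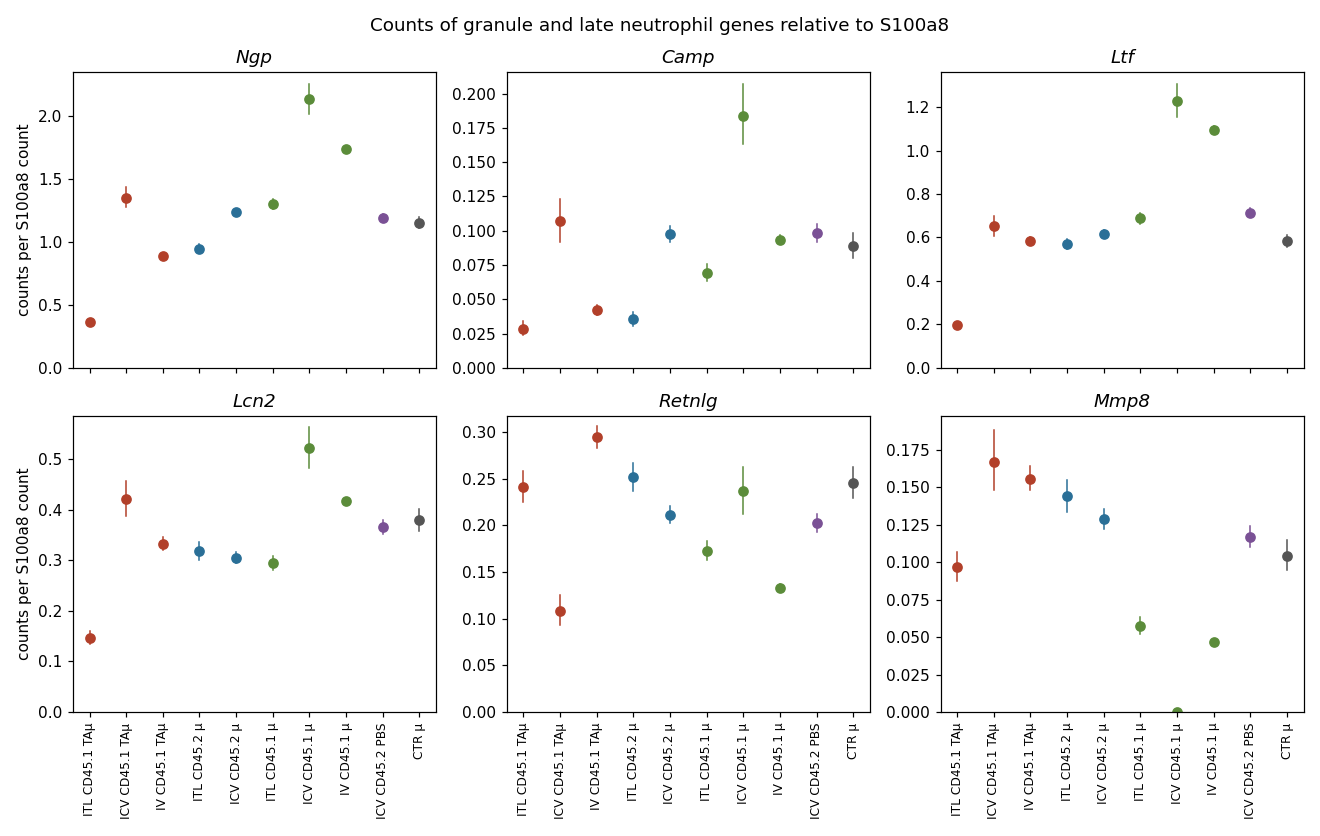
Counts of 6 neutrophil genes per S100a8 count (linear axes from 0) in 10 libraries, 1 point per library, with exact 95% intervals for counting error; IV CD45.2 µ, with 11 S100a8 counts, is not drawn. The ratio of Ltf is 0.196 to 0.652 in TAµ and 0.688 to 1.23 in CD45.1 µ, and that of Mmp8 is 0.0965 to 0.167 in TAµ and 0 to 0.0573 in CD45.1 µ. ITL and ICV CD45.2 µ lie within the TAµ range for both genes, with 0.569 and 0.615 for Ltf and 0.144 and 0.1285 for Mmp8.

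Other genes of the neutrophil programme were followed from lists. Of 29 other mature neutrophil genes 28 were in the tables (Ly6g was not among them) and 27 were tested. edgeR called 0 of 27 in all 6 contrasts with 9 libraries, beside backgrounds of 0% to 0.345%. For ICV against IV all 27 had a fitted fold change below 0, at a median of -1.06. Without IV CD45.2 µ 5 of 27 were called lower, at a median of -2.29, beside a background of 0.212%. That library was left out for its neutrophil gene levels and has 25 of these 28 genes at 0. The calls share that choice and are no independent support for those of the members. Cd177, a neutrophil surface protein, had -3.14 ± 0.41 (SE; edgeR adjusted p = 0.00475), and Mmp9, the gelatinase of tertiary granules, had -1.82 ± 0.30 (0.0190). The others were Hdc, which makes histamine (-2.23 ± 0.35), Anxa1, annexin A1 (-2.67 ± 0.50), and Adam8, a membrane protease (-2.49 ± 0.37). For ITL against IV without IV CD45.2 µ Adam8 was called lower (-1.92 ± 0.36; edgeR adjusted p = 0.0447), beside a background of 0.265%. Between TAµ and CD45.1 µ 22 of the 27 had a fold change below 0, at a median of -0.69, and none was called with or without IV CD45.2 µ. Between TAµ and CD45.2 µ 14 of the 27 were below 0, and without IV CD45.2 µ all 27 were, at a median of -1.34, with none called.

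Earlier granule and precursor genes were mixed. Of 9 primary granule and precursor genes 8 were tested. Between TAµ and CD45.1 µ 4 had a fitted fold change above 0 and 4 below. Below 0 were Fcnb, a ficolin (-2.07 ± 1.25), the transcription factor genes Cebpe (-3.19 ± 1.52) and Gfi1 (-3.21 ± 1.38), each with some libraries at 0, and Cebpd (-0.07 ± 0.60), and none of the 8 was called. For ITL against IV 7 of the 8 were below 0, at a median of -2.03, and none was called. IV CD45.2 µ was the lowest library for this list too, with a sum of 3.48 CPM and 7 of 9 genes at 0, where 10477 of all 24411 genes had a count. Mpo, myeloperoxidase, had 2.73, 93.3 and 35.9 CPM in ITL, ICV and IV TAµ, against 0, 0 and 0.386 CPM in ITL, ICV and IV CD45.2 µ and 0, 0 and 3.17 CPM in ITL, ICV and IV CD45.1 µ. It was called higher in TAµ than in CD45.2 µ, the only gene of this list called in the 6 contrasts with 9 libraries (edgeR adjusted p = 0.00871). Against CD45.1 µ its adjusted p was 0.0737, and 0.0354 without IV CD45.2 µ. The fitted fold change of Mpo, set against libraries at 0, is no bound and is not given. ICV TAµ, the library lowest in summed members after IV CD45.2 µ, had the highest Mpo level, and ICV CD45.2 PBS had 76.0 CPM. Elane, neutrophil elastase, had 0.841, 27.3 and 12.9 CPM in ITL, ICV and IV TAµ and did not pass.

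Of 11 ligands and receptors of the members 7 were tested, and edgeR called none with 9 libraries. Csf3, the ligand of Csf3r, had at most 0.282 CPM in any library, and Cxcl5, a Cxcr2 ligand, was at 0 in all 11. Cxcl2, another ligand of Cxcr2, was the highest of the list in all libraries but CTR µ, where Tlr4 (184.9 CPM) was above it (133.6 CPM). It had 305, 200.3 and 313 CPM in ITL TAµ, ITL CD45.2 µ and ITL CD45.1 µ. In the IV libraries it had 936, 491 and 862 CPM for the same populations. Without IV CD45.2 µ it was called lower for ITL against IV (-1.70 ± 0.33; edgeR adjusted p = 0.0464). Tlr4, a receptor for calprotectin, ran from 70.0 CPM in IV CD45.2 µ to 184.9 CPM in CTR µ.

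**Figure D4:**
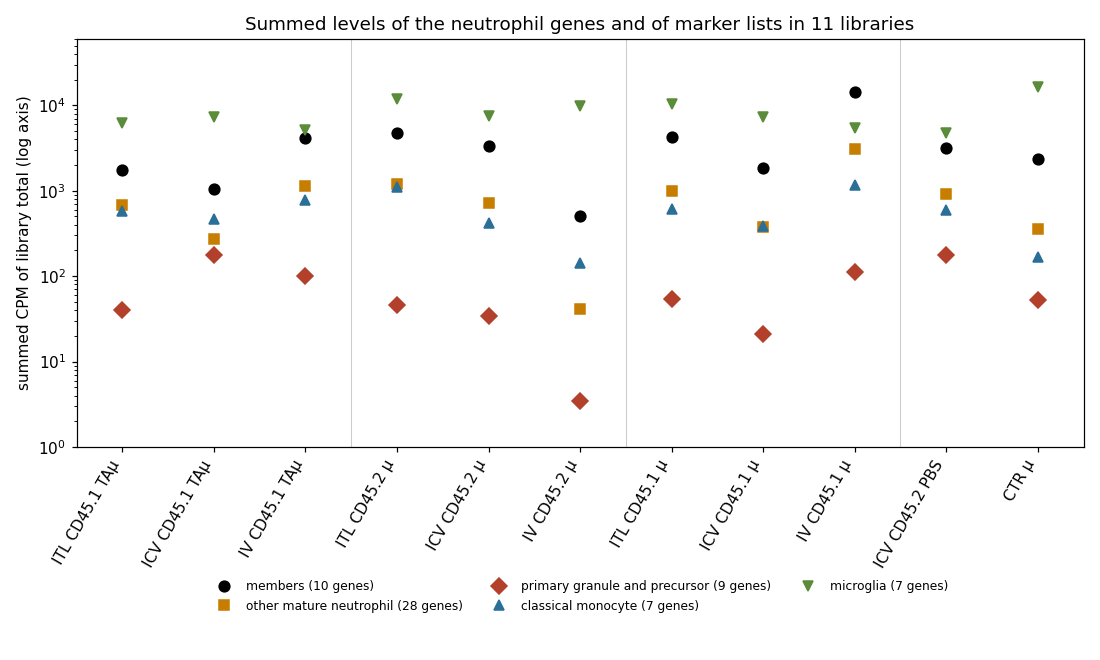
Summed level (CPM of the library total, log axis) of the 10 members, 28 other mature neutrophil genes, 9 primary granule and precursor genes, 7 classical monocyte markers and 7 microglial markers in each of the 11 libraries, 1 point per list and library. The other mature neutrophil genes are highest in IV CD45.1 µ (3047 CPM) and lowest in IV CD45.2 µ (41.3 CPM), as the members are, the monocyte markers run from 142.3 to 1163 CPM between the same libraries, of which Chil3, on both lists, is 0 and 841 CPM, and the primary granule genes peak in PBS and ICV TAµ.

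Markers of other blood cells were sparse. The T and NK cell list summed to at most 11.4 CPM, the B cell list to at most 11.2 CPM and the eosinophil, basophil and mast cell list to at most 72.8 CPM, in IV TAµ. Of the erythroid list Hbb-bs, Hba-a1 and Hba-a2 were at 0 in all 11 libraries. As the annotation and filters were not given, these 0 counts are no measure of erythroid RNA. Alas2, the remaining erythroid marker, had 14.4 CPM (186 counts) in IV CD45.2 µ and at most 0.985 CPM in any other library. Astrocyte markers, of interest for Lcn2, ran from 16.3 CPM in IV TAµ to 269 CPM in IV CD45.2 µ, the library with 11 counts of Lcn2. Border macrophage markers ran from 241 CPM in CTR µ to 2477 CPM in ICV CD45.1 µ.

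Across the 11 libraries the log2(CPM + 1) of the 9 members other than Csf3r correlated with one another, with a median Pearson r of 0.94 over 36 pairs (lowest 0.65). Csf3r had a median r of 0.21 with the other 9. Without IV CD45.2 µ these medians were 0.83 (lowest 0.27, Camp with Mmp8) and 0.56. The low r of Csf3r over 11 libraries thus rested largely on IV CD45.2 µ. The points share depth and library composition, and the values are descriptive. Among 13130 other genes the 10 most like the members' mean were Anxa1, Mmp9, Chil3, Cd177, Zfp574, Slc16a3, Mrps34, Irg1, Trim23 and Hdc, with r of 0.96 to 0.98 over 11 libraries. Of these, 9 were at 0 in IV CD45.2 µ, Slc16a3 (1.93 CPM there) being the other. Without that library 1 of the 10, Cd177 (r = 0.97 over 10 libraries), stayed among the 10 most alike, beside Wdsub1 and Lig3.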

How the data were processed

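RNA was taken from 11 libraries of sorted brain myeloid cells and measured as polyadenylated RNA, per the labels. The authors deposited raw counts, whole-number reads per gene symbol with no normalization, in 1 table per library. Per the submitters' processing notes, STAR aligned the reads, and the mouse build appears there as mm39 and as GRCm39. The STAR version, gene annotation, strand setting and filters were not given in the sources used here. All columns were assigned, so 0 were left over.

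Levels are CPM of the library total. The 9 libraries of the 3 routes by 3 populations were fitted together (route plus population, 4 residual degrees of freedom) in R 4.3.3 with edgeR 4.0.16: genes kept by its filter (minimum count 10, minimum total 15), TMM factors of 0.876 to 1.087, a biological coefficient of variation of 0.842, and quasi-likelihood tests with Benjamini-Hochberg adjustment at 0.05 over all 13339 genes. DESeq2 1.42.0 was an alternative. The fit was tested on simulated data with known changes. It called 1.49% to 5.97% of true changes of 1 log2 unit, 25.4% to 38.8% of those of 2 and 56.1% to 66.7% of those of 4. A member that was not called may therefore still differ. ICV CD45.2 PBS and CTR µ stayed outside it, and single libraries were compared by ratios with exact 95% intervals, taking 3 counts as the limit for 0. Since no molecular identifiers were counted, these intervals and limits speak to counting error alone.

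The members, the gene lists and the rule for named genes (all members, list genes that passed or were highest, and the 10 genes most correlated with the members) were chosen with earlier results of these data known. Exon lengths came from GENCODE M21 and promoters from RefSeq, both GRCm38, and were used only for comparisons between genes and for sequences. Some list genes are not reported here and are left out of the list sums and counts.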

Additional observations from a re-analysis of the deposited data

Results flagged for a closer look

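A pair of patterns stood out because the same contrast pointed one way by more than 2-fold in one route and the opposite way by more than 2-fold in another, each with a counting interval that did not include 1. Both rest on IV CD45.2 µ, a single library, and the difference between routes was not tested. For IV CD45.2 µ against IV CD45.1 µ the log2 ratios were -11.34 for S100a8, -15.60 for Ngp and -10.07 for Lcn2. With 3 counts put in place of 0 they were -14.02 for S100a9, -10.30 for Retnlg and -8.79 for Mmp8. For the same genes ICV CD45.2 µ was above ICV CD45.1 µ, by 1.01 (Ngp) to 1.80 (S100a8) on the log2 scale where both had counts. For Mmp8 it was above by 8.11, with 3 counts put in place of 0. In ITL the Mmp8 log2 ratio was 1.74. For IV TAµ against IV CD45.2 µ the log2 ratios were 9.78 for S100a8, 13.07 for Ngp, 8.67 for Camp, 8.20 for Lcn2 and 5.21 for Cxcr2. With 3 counts put in place of 0 they were 12.28 for S100a9, 10.89 for Ltf, 9.90 for Retnlg and 8.97 for Mmp8. In the ICV pair the same genes had log2 ratios of -2.82 to -1.39, lower in TAµ. In the ITL pair S100a8 had -0.97 and Cxcr2 -0.58, and the other 7 genes -2.51 to -1.03.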

How the results depend on the processing

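Of 1020 recomputed fold changes (60 values under 17 alternatives) 907 stayed on the same side of 0 and of the threshold, 24 passed it and 89 changed sign, none of which had passed. Scaling by DESeq2 size factors, by library totals or by totals without Rn45s, and dropping the filter, changed no sign. Calls of members came from leaving out libraries, and from DESeq2 for 1. With each library left out in turn, members called ran from 0 to 1 for TAµ against CD45.1 µ, 0 to 3 for TAµ against CD45.2 µ, 0 to 6 for ICV against IV and 0 to 3 for ITL against IV, the upper value always without IV CD45.2 µ, and were 0 for the other contrasts. With ICV CD45.1 µ and IV CD45.2 µ both left out they were 3 for TAµ against CD45.1 µ, 3 for TAµ against CD45.2 µ and 4 for ITL against IV. That setting, the legacy fit and the likeness without IV CD45.2 µ were chosen after seeing the data. Genes called over all genes ranged, with each library left out, from 0 to 24 for TAµ against CD45.1 µ, 0 to 29 for CD45.2 µ over CD45.1 µ, 5 to 159 for TAµ against CD45.2 µ, 0 to 28 for ICV against IV, 0 to 35 for ITL against IV and 0 to 3 for ITL against ICV. With library totals alone, they were 18 for TAµ against CD45.1 µ and 3 for ICV against IV. Without the filter, they were 23 for TAµ against CD45.1 µ, 8 for ICV against IV and 2 for ITL against ICV. By DESeq2, they were 217 for TAµ against CD45.1 µ, 278 for CD45.2 µ over CD45.1 µ, 195 for TAµ against CD45.2 µ, 147 for ICV against IV, 150 for ITL against IV and 32 for ITL against ICV. Without the block, they were 2 for TAµ against CD45.1 µ, 0 for CD45.2 µ over CD45.1 µ and 16 for ITL against IV. By edgeR's legacy fit, they were 3 for TAµ against CD45.1 µ, 0 for CD45.2 µ over CD45.1 µ, 22 for TAµ against CD45.2 µ and 10 for ITL against IV. Without both libraries, they were 49 for ITL against IV and 2 for ITL against ICV.

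Log2 fold changes that changed sign had not passed the test with 9 libraries, and the cause was not tested. By DESeq2, the log2 fold change turned to -0.25 for Cxcr2 in TAµ against CD45.2 µ. Without the block, the log2 fold change turned to -0.40 for Retnlg in CD45.2 µ over CD45.1 µ and 0.06 for Retnlg in TAµ against CD45.2 µ. By edgeR's legacy fit, the log2 fold change turned to -0.24 for Cxcr2 in TAµ against CD45.2 µ. Without both libraries, the log2 fold change turned to 0.30 for S100a8 in CD45.2 µ over CD45.1 µ, 0.12 for Lcn2 in CD45.2 µ over CD45.1 µ, 0.47 for Csf3r in CD45.2 µ over CD45.1 µ, -0.92 for Cxcr2 in TAµ against CD45.2 µ, -0.25 for Ngp in ITL against ICV and -0.02 for Ltf in ITL against ICV. In TAµ against CD45.1 µ, log2 fold changes that turned when 1 library was left out ran from -1.56 to 0.83 for S100a8, -1.92 to 0.20 for S100a9, -1.96 to 0.28 for Lcn2, -1.24 to 0.85 for Retnlg and -0.08 to 2.33 for Mmp8. In CD45.2 µ over CD45.1 µ, log2 fold changes that turned when 1 library was left out ran from -1.82 to 0.96 for S100a8, -2.26 to 0.46 for S100a9, -1.95 to 0.29 for Ngp, -3.07 to 0.08 for Camp, -1.89 to 0.34 for Ltf, -1.62 to 0.63 for Lcn2, -1.33 to 1.43 for Retnlg, -0.18 to 2.45 for Mmp8 and -0.34 to 0.20 for Csf3r. In TAµ against CD45.2 µ, log2 fold changes that turned when 1 library was left out ran from -1.59 to 1.01 for S100a8, -1.59 to 1.06 for S100a9, -2.09 to 0.11 for Ngp, -1.96 to 1.20 for Camp, -1.83 to 0.30 for Lcn2, -1.75 to 0.89 for Retnlg, -1.69 to 0.99 for Mmp8 and -1.08 to 1.72 for Cxcr2. In ICV against IV, log2 fold changes that turned when 1 library was left out ran from -2.68 to 0.18 for S100a8, -2.31 to 0.31 for Ngp, -1.70 to 1.19 for Camp and -2.55 to 0.07 for Lcn2. In ITL against IV, log2 fold changes that turned when 1 library was left out ran from -1.38 to 1.33 for S100a8, -1.56 to 0.92 for S100a9, -2.04 to 0.72 for Ngp, -1.98 to 0.86 for Camp, -2.27 to 0.45 for Ltf, -2.00 to 0.71 for Lcn2, -1.27 to 0.79 for Retnlg, -1.52 to 1.03 for Mmp8, -0.41 to 0.13 for Csf3r and -1.03 to 0.42 for Cxcr2. In ITL against ICV, log2 fold changes that turned when 1 library was left out ran from -0.78 to 1.38 for Ngp, -1.60 to 0.89 for Camp, -0.71 to 1.48 for Ltf, -0.57 to 1.57 for Lcn2 and -0.07 to 0.44 for Csf3r.

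No paired analysis was possible because no animal or replicate number ties libraries together. With 1 library per route and population, an effect that differs between routes cannot be tested and enters the spread, so p-values measure the departure of libraries from the additive pattern and may be partly technical. Counting error is small at most levels here, and it limits the values from 0 to 27 counts in IV CD45.2 µ, ICV TAµ and ICV CD45.1 µ.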
